A study of Homo sapiens with 28 samples.

Results

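Interferon-stimulated genes are the genes that cells switch on when an interferon binds its receptor. A list of 49 of them was followed through ATAC-seq data from myeloma cell lines, an assay whose enzyme cuts and tags DNA where chromatin is open, so that the count in a region measures its accessibility. Every region whose nearest annotated transcription start belonged to a listed gene was taken, which gave 168 of 154985 regions. Of these, 53 overlapped the start itself and are called promoter regions here (18012 in all), and 115 lay off the start. At least 1 region was found for 47 of the 49 genes and a promoter region for 45 (15217 genes in all). No region carried the names IFI27 or ISG15, and none overlapped a start annotated to IFIT5 or DTX3L. DTX3L lies beside PARP9 and is transcribed away from it, and the region between them was annotated to PARP9.

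Type I interferons signal through the kinases JAK1 and TYK2 to a complex that holds STAT2 and IRF9 and binds a DNA element called ISRE. Interferon gamma acts through a different element, called GAS. The induced proteins sense foreign RNA, block its translation, degrade it, hinder the entry and release of viruses, and tune the signal itself.

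The samples were 22 untreated human myeloma lines and 6 of the same lines (Karpas620, KMS27, L363, MM1S, OPM2 and RPMI8226) after 3 days in 10 µM lenalidomide, a drug that redirects the cereblon ubiquitin ligase to the transcription factors IKZF1 and IKZF3. The genotypes of the lines were left as they were, and within a line the drug is the difference that the labels name. They give no vehicle and no day of culture for the untreated libraries, so a part of either in the differences cannot be told apart from the drug. Each line was assayed once per condition, so lines were the unit of replication, and a value for 1 line has no error of its own. Because cell lines differ in DNA copy number, more copies of a locus and more open chromatin per copy cannot be told apart between lines, whereas each treated library was compared with its own line.

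Untreated libraries held 1599857 to 5564534 counts in regions (median 2239819) and lenalidomide libraries 2168680 to 4248017 (median 2655490). Levels are given as CPM, the count of a region scaled by the library's sum over all regions. In bulk libraries, more cells with an open region and more open chromatin per cell cannot be told apart. A region was said to be called in a library when the authors' table gave at least 1 peak for it there. The label of the cells was checked with marker genes. All 8 plasma cell markers had a promoter region, with a summed level over the 8 of 208 to 397 CPM per line. PRDM1, TNFRSF17 and POU2AF1 were called in all 22 lines, SDC1 and CD38 in 21, IRF4 and XBP1 in 18, and SLAMF7 in only 2. Of 4 T cell markers, 2 had a promoter region, with a sum of 0.865 to 12.1 CPM, and of 4 myeloid markers only SPI1 did, with 0 to 34.2 CPM. Of the B cell markers, PAX5 had no promoter region, whereas CIITA was called in all 22 lines. Among 4 erythroid markers, HBB was called in 9 lines, and EPOR in all 22.

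The elements that carry the interferon signal were looked for in the DNA first. In the 300 bases from 250 before to 50 after each annotated start of the GRCh37 genome, both strands were searched for 3 short patterns. ISRE was written as GAAA, any 2 bases and GAAA, the composite site of ETS factors and interferon regulatory factors as GGAA, any 2 bases and GAAA, and GAS as TTC, any 3 bases and GAA. Matches of ISRE and of the composite can overlap, as they did at 5 member promoters. ISRE letters were in 24 of 53 member windows (45.3%) against 4.17% of 18012 windows in all. Composite letters were in 11 (20.8%, against 2.89%) and GAS letters in 10 (18.9%, against 6.36%). Matches are descriptions of the letters and were not tested as binding sites.

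IFIT1 and IFIH1, which encode an RNA cap-binding protein and the RNA sensor MDA5, show the arrangement close to a start. The 120 bases before each start are printed 5′ to 3′ on the strand of the gene, with ISRE matches in capitals. At IFIT1 the paired matches lie in opposite orientation to the gene, 39 and 26 bases before the start, and at IFIH1 the match lies 21 bases before it.
IFIT1 (chr10:91152183-91152302, GRCh37, plus strand): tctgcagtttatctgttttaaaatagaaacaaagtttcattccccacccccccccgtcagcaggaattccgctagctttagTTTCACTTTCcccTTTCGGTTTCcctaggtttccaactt
IFIH1 (chr2:163175195-163175314, GRCh37, minus strand): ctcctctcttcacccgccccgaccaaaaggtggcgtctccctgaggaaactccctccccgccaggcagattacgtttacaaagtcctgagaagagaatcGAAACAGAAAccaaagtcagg

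For the genes on which the lenalidomide results below turn, 30 bases around a match are printed in the same way, each from within the gene's promoter region. Capitals mark ISRE letters in PARP9, IFI6, DDX60, RSAD2, TRIM5, HERC6, USP18 and BST2, and composite letters in DDX58, PLSCR1 and MX1.
DDX58 (chr9:32526379-32526408, minus strand): cggtgcggagGGAAACGAAActagcccgag
PARP9 (chr3:122283169-122283198, minus strand): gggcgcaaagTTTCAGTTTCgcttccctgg
IFI6 (chr1:27998799-27998828, minus strand): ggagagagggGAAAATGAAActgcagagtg
PLSCR1 (chr3:146262421-146262450, minus strand): gtaagattcaGGAAACGAAAccaggagccg
DDX60 (chr4:169239972-169240001, minus strand): gtgctgaaggGAAACTGAAAcctaagtgct
RSAD2 (chr2:7017753-7017782, plus strand): ctgtttcaacTTTCAGTTTCacatgtggaa
TRIM5 (chr11:5706312-5706341, minus strand): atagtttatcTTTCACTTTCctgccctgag
HERC6 (chr4:89300554-89300583, plus strand): ctcggatttgTTTCGGTTTCcaattcaagt
USP18 (chr22:18632836-18632865, plus strand): ccattcagtgGAAAACGAAAgctgggcggg
BST2 (chr19:17516550-17516579, minus strand): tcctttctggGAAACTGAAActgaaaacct
MX1 (chr21:42792128-42792157, plus strand): gcacagaagaGGAAACGAAAcgaggcaaag
The matches of RSAD2, HERC6, USP18 and MX1 lie in the promoter region but outside the 300-base window. GGAAACGAAA was the same 10 letters at DDX58, PLSCR1 and MX1, and the promoter regions of OAS1, ADAR and PARP14, which were not called with lenalidomide, held it as well. The promoter region of CMPK2, the gene that varied most between lines, held 4 copies of the same letters on the opposite strand, 802, 826, 860 and 894 bases downstream of the annotated start.
CMPK2 (chr2:7005945-7005974, minus strand): ggcctccggcTTTCGTTTCCccgcaacgct
CMPK2 (chr2:7005921-7005950, minus strand): aacgcttcgcTTTCGTTTCCcgctggcgcc
CMPK2 (chr2:7005887-7005916, minus strand): tccctccgggTTTCGTTTCCcgccggcgcc
CMPK2 (chr2:7005853-7005882, minus strand): tcccgccaggTTTCGTTTCCgaggcggggc
The capitals are identical in all 4 copies.

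Member promoters were less often open in every line than promoters at large. A promoter region was called in all 22 untreated lines for 10 of the 45 genes (22.2%), against 34.7% of 15217 genes, and in the median gene for 16 lines against 19. LGALS3BP was the only member called in no line. The median level was 16.6 CPM per kb of promoter region for the members and 20.8 for all genes. The median SD of log2(CPM + 1) between lines was 0.84 against 0.67, and the SD was above 1 for 16 members (35.6%, against 26.6% of all genes). These shares describe the list, and no test was made of it.

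**Figure D1:**
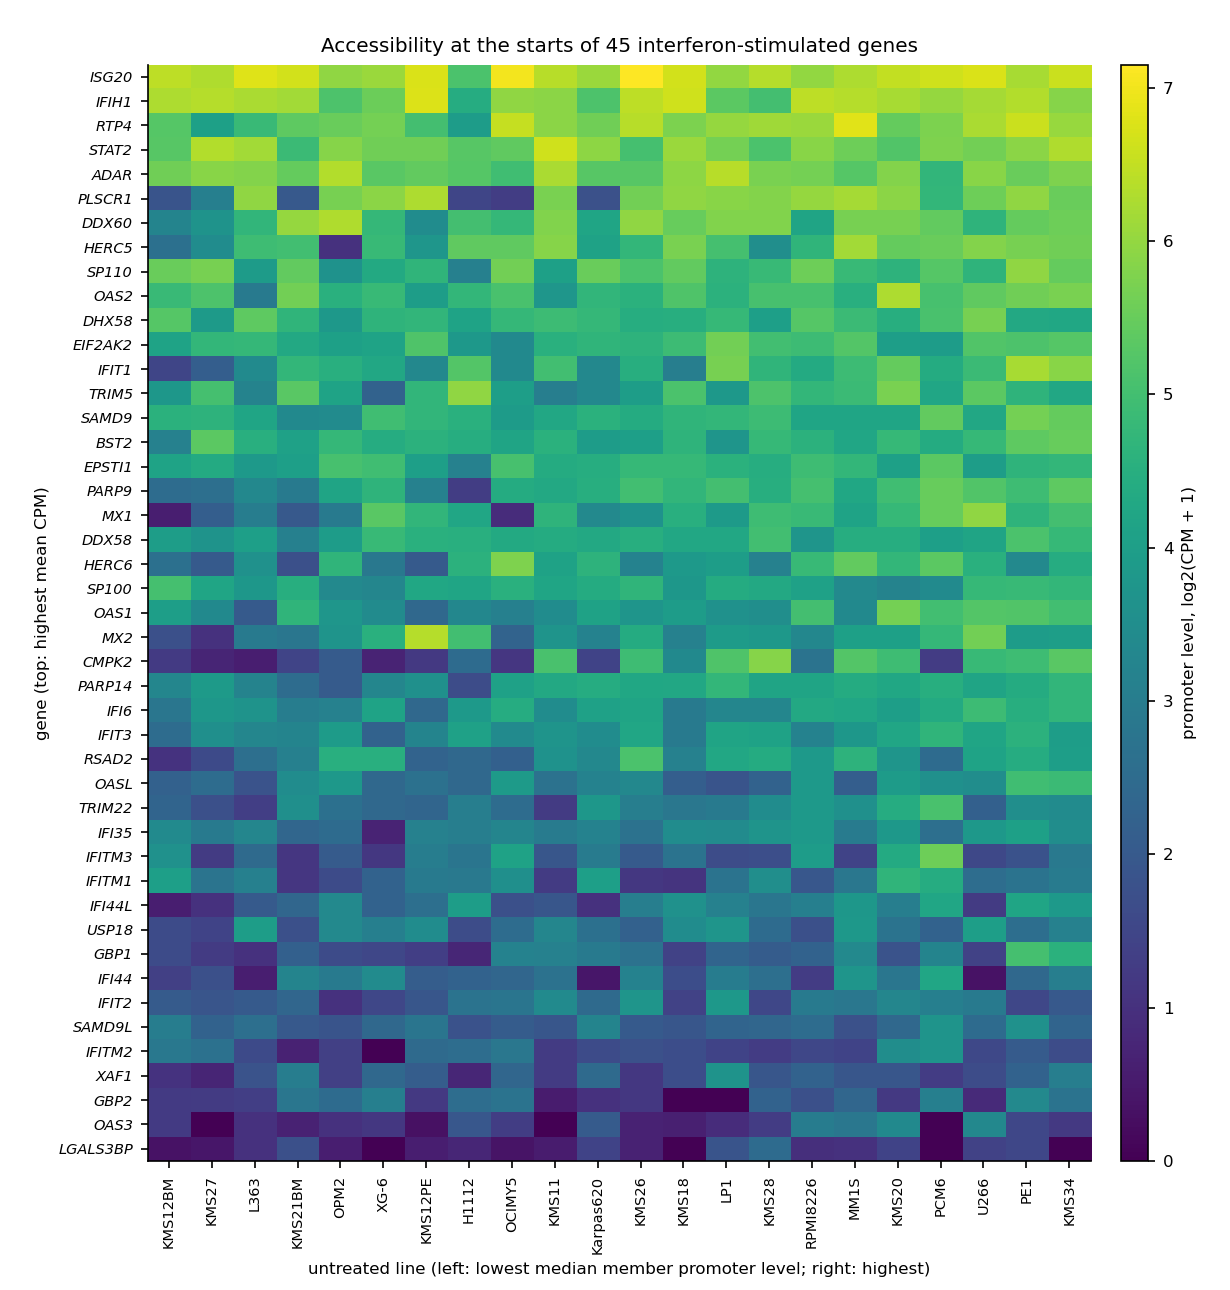
Promoter accessibility of the 45 members with a promoter region (rows, highest mean CPM at the top) in the 22 untreated lines (columns, ordered by the median member level), as log2(CPM + 1) on a color scale. ISG20, IFIH1 and STAT2 are bright in every column, PLSCR1 and CMPK2 are bright in some columns and dark in others, and LGALS3BP and OAS3 are dark in nearly every column.

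By mean level per kb over the 22 lines, the 6 most accessible promoters were those of ISG20, STAT2, DDX60, IFIH1, PLSCR1 and HERC5. ISG20, an exonuclease for single-stranded RNA, led with 65.4 ± 18.4 CPM per kb (SD, n = 22 lines). STAT2, a subunit of the factor that binds ISRE, had 60.1 ± 19.8, the helicase DDX60 had 49.7 ± 25.4 and IFIH1 had 44.8 ± 15.8 CPM per kb. These 4 promoters were called in all 22 lines, and each differed from its neighbor in the order by less than its SD. PLSCR1, a scramblase of membrane lipids, had 37.33 ± 23.46 CPM per kb and HERC5, the ligase that attaches ISG15 to proteins, had 26.8 ± 15.2. The lowest 6 were LGALS3BP (3.94 ± 4.16 CPM per kb), OAS3 (5.003 ± 6.179), GBP2 (5.27 ± 4.47), GBP1 (5.56 ± 7.02), IFITM2 (5.98 ± 5.28) and XAF1 (7.08 ± 5.54). For these genes the SD was of the order of the mean, and they were called in 0 to 5 lines.

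The level followed the role of the gene only loosely. The 4 RNA sensors and helicases had means of 20.9 to 49.7 CPM per kb, and 3 of the 4 were called in every line. DHX58 (20.9) and DDX58 (21.9) lay near the median of 20.8 CPM per kb over all genes. The 10 promoters of RNA-binding and RNA-modifying effectors ranged from 5.003 (OAS3) to 65.4 CPM per kb (ISG20), and among them ADAR, an RNA editing enzyme, and EIF2AK2, the kinase PKR that halts translation, were called in all 22 lines. None of the 7 promoters of membrane and nucleotide effectors, of the 4 of GTPases (MX1, MX2, GBP1 and GBP2, at 5.27 to 12.9 CPM per kb), or of the 7 of the ISG15, ubiquitin and ADP-ribosylation group was called in every line. IFITM1, IFITM2 and IFITM3 are close relatives in sequence, and how reads that match more than 1 of them were placed is not given in the sources used here, so their levels are uncertain.

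CMPK2 had a gap in its levels over the lines, and PLSCR1 split the lines into an open and a closed set. CMPK2, a mitochondrial nucleotide kinase, had the largest SD (1.92 on the log2 scale). It lay between 0.510 and 9.53 CPM in 13 lines and between 27.3 CPM (U266) and 56.6 CPM (KMS28) in the other 9, with no line in between. The gap did not part open from closed lines, as CMPK2 was called in 10 lines, among them KMS18 at 9.53 CPM. PLSCR1 (SD 1.82) lay at 1.47 CPM in OCIMY5, 1.80 in H1112, 2.43 in Karpas620, 2.63 in KMS12BM, 2.98 in KMS21BM and 7.42 in KMS27, and at 25.6 to 76.3 CPM in the other 16 lines. KMS12BM and KMS12PE stood at opposite ends, at 2.63 and 76.3 CPM of PLSCR1. The 2 genes did not part the same lines: L363 was the lowest line for CMPK2 (0.510 CPM) and had 61.7 CPM at PLSCR1.

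The other promoters of large SD are given by their lowest line, median and highest line. MX1, a GTPase that traps viral nucleoprotein, had an SD of 1.44 and ran from 0.526 CPM in KMS12BM through a median of 19.9 to 61.8 in U266. HERC5 (SD 1.23) ran from 1.04 CPM in OPM2 through 31.3 to 70.0 in MM1S, and OPM2 stood alone below the other 21 lines, the lowest of which was at 5.26 CPM. MX2, a relative of MX1 that acts on retroviruses (SD 1.204), ran from 1.01 CPM in KMS27 through 13.7 to 80.4 in KMS12PE. IFITM3, a membrane protein that hinders viral entry (SD 1.19), ran from 1.19 CPM in KMS21BM through 3.86 to 47.0 in PCM6. IFIT1 (SD 1.19) ran from 1.84 CPM in KMS12BM through 21.7 to 73.8 in PE1, and HERC6, a relative of HERC5 (SD 1.15), from 2.38 CPM in KMS21BM through 15.7 to 53.4 in OCIMY5. KMS12BM, KMS27 and KMS21BM recur at the low end of these genes. With a pseudocount of 0.1 in place of 1, which gives more weight to promoters near 0, 3 of these 8 genes were still among the 8 of largest SD.

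**Figure D2:**
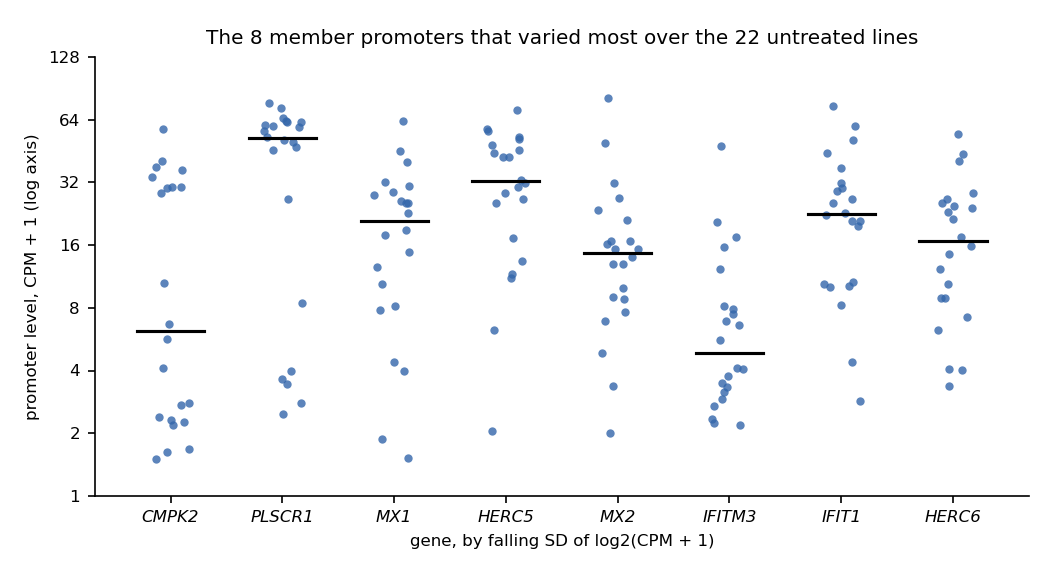
CPM + 1 on a log axis for the 8 member promoters of largest SD; each point is 1 of the 22 untreated lines, and the bar is the median. CMPK2 has 13 lines at or below 9.53 CPM and 9 at or above 27.3 CPM, and PLSCR1 has 6 lines at or below 7.42 CPM and 16 at or above 25.6 CPM, while OPM2 is alone at 1.04 CPM of HERC5, below the other 21 lines.

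The lines also differed over the list as a whole. When each promoter was set relative to its own median over lines, the median member ranged from −0.51 on the log2 scale in KMS12BM to 0.47 in KMS34, against −0.23 to 0.27 for all promoters. The lowest lines after KMS12BM were KMS27 (−0.42), L363 (−0.39) and KMS21BM (−0.38), and the highest below KMS34 were PE1 (0.45), U266 (0.36) and PCM6 (0.30). In L363 the median of all promoters was 0.27, the highest of any line, beside the low value of the members, and in PE1 it was −0.10 beside the high one. L363 had 18 of 45 members called (40.0%, against 63.8% of all genes), the fewest, and KMS20 had 41 (91.1%, against 77.4%), the most. Over the 22 lines the Spearman correlation with the library total was 0.35 for the number of members called and −0.03 for the median level, given as descriptions.

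Member promoters moved together between lines only weakly. Over the 990 pairs of member promoters the median Spearman correlation across the 22 lines was 0.138, against 0.046 for all promoters. It was 0.271 for the 70 pairs on the same chromosome and 0.130 for the 920 pairs on different ones. A correlation above 0.5 was found for 54 pairs (5.45%, against 3.28% of all pairs). All values come from the same 22 libraries and share their depth and each line's copy number. The most alike were IFIT1 and CMPK2 (0.73), PARP14 and GBP1 (0.72), PARP9 and PARP14 (0.71), MX1 and MX2 (0.71), and GBP1 and RTP4 (0.71). PARP9 and PARP14, which recognize or attach ADP-ribose, had the highest median correlation with the other members (0.33 and 0.30), whereas ADAR, IFIH1, ISG20 and STAT2, all widely open, had −0.05 to −0.01.

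Neighboring members illustrate how far a shared location went. MX1 and MX2 lie 49.4 kb apart on chromosome 21 and OAS1 and OAS2, which make the second messenger for RNase L, 70.3 kb apart on chromosome 12, with correlations of 0.71 and 0.67. CMPK2 and RSAD2, which encodes the antiviral radical enzyme viperin, lie 10.7 kb apart on chromosome 2 and had 0.61. HERC5 and HERC6 (76.8 kb apart on chromosome 4) had 0.41, and GBP1 and GBP2 0.27. In OPM2 the HERC5 promoter was at 1.04 CPM, the lowest of all lines, while HERC6 was at 24.5 CPM.

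**Figure D3:**
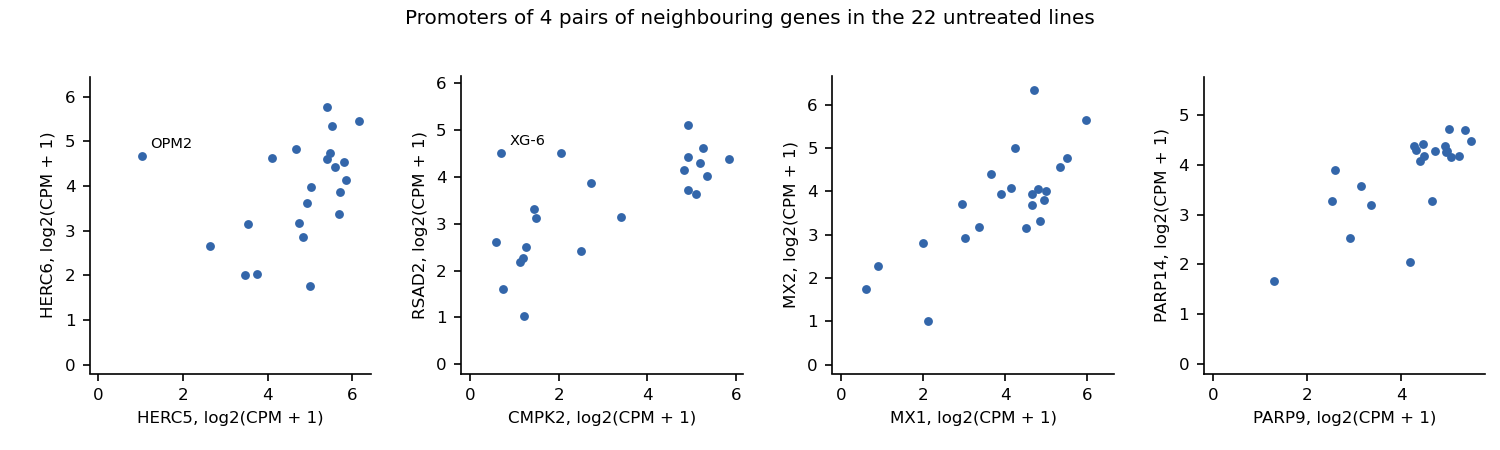
Promoter levels, log2(CPM + 1), of 4 pairs of neighboring genes, with 1 point for each of the 22 untreated lines. The points rise together for MX1 with MX2 and PARP9 with PARP14 (correlations of 0.71), while OPM2 is low at HERC5 and open at HERC6 and XG-6 is low at CMPK2 and open at RSAD2.

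Regions off the start were mostly open in few lines. Of the 115, 54 lay upstream and 61 downstream of the start, 20 within 1 kb and 86 within 10 kb, with a median distance of 4929 bp and a largest of 62624 bp. None was called in all 22 lines (0.641% of all regions off a start were), 46 were called in 1 line (40.0%, against 40.7%) and 14 in none of the untreated lines. SP100, a nuclear body protein, had the most (12), followed by ISG20 and PLSCR1 with 8 each. The 6 of highest mean level belonged to ISG20, IFIT3, SP100 and SAMD9L. A region in an intron of ISG20 946 bp downstream of a start (chr15:89183221-89183726) had 30.0 ± 11.2 CPM (SD, n = 22) and was called in 19 lines. A region in an intron of IFIT3 1322 bp downstream (chr10:91093564-91094295) had 28.2 ± 13.1 CPM and was called in 21 lines, more than the 11 lines in which the promoter of IFIT3 itself was called. The others were a region 3720 bp upstream of SP100 (25.0 ± 8.63 CPM), 1 region 4577 bp downstream of ISG20 (20.7 ± 17.7 CPM) and 2 of SAMD9L, 477 bp downstream (19.4 ± 11.8 CPM) and 16920 bp upstream (18.5 ± 9.12 CPM). At SAMD9L, an antiviral restriction factor, both exceeded the promoter region (4.81 ± 2.67 CPM), which was 296 bp wide against 1138 and 709 bp.

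Lenalidomide raised accessibility at the starts of 12 of 36 tested members and lowered it at 0 of them. RNA sensors (DDX58, IFIH1 and DDX60), PARP9, IFI6, PLSCR1, RSAD2, HERC6, TRIM5, USP18 and BST2 rose both as single regions and with promoter regions summed per gene. Counts were fitted with edgeR over all regions with the cell line as a block, and a call is a Benjamini-Hochberg adjusted p below 0.05 over all features tested. Of the 168 member regions, 59 had enough counts to be tested. Among these 13 were raised (4.17% of all 37732 tested regions were) and 2 lowered (1.22% of all were). All 13 raised regions were among the 39 tested at a start (1.97% of all tested start regions were raised and 0.496% lowered). Of the 20 tested off the start, 0 were raised (5.35% of all were) and 2 lowered (1.61% of all were), with 7 of the 20 at an unadjusted p below 0.05 in edgeR. With promoter regions summed per gene, 36 of the 45 members could be tested, and 12 were raised (2.08% of 11901 genes were) and 0 lowered (0.244% were), with 22 at an unadjusted p below 0.05. The share of all features at an unadjusted p below 0.05 was not counted. Counts of members at that p, here and below, therefore have no background beside them. DESeq2 raised 3 of the 36 (57 of all 11901 genes) and lowered 0 (3 of all 11901). The fitted log2 fold change was above 0 for 33 of the 36 (50.4% of all genes) with a median of 0.42, and the exceptions were SAMD9 (−0.30), SP110 (−0.04) and ISG20 (−0.02), none of which passed the test.

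**Figure D4:**
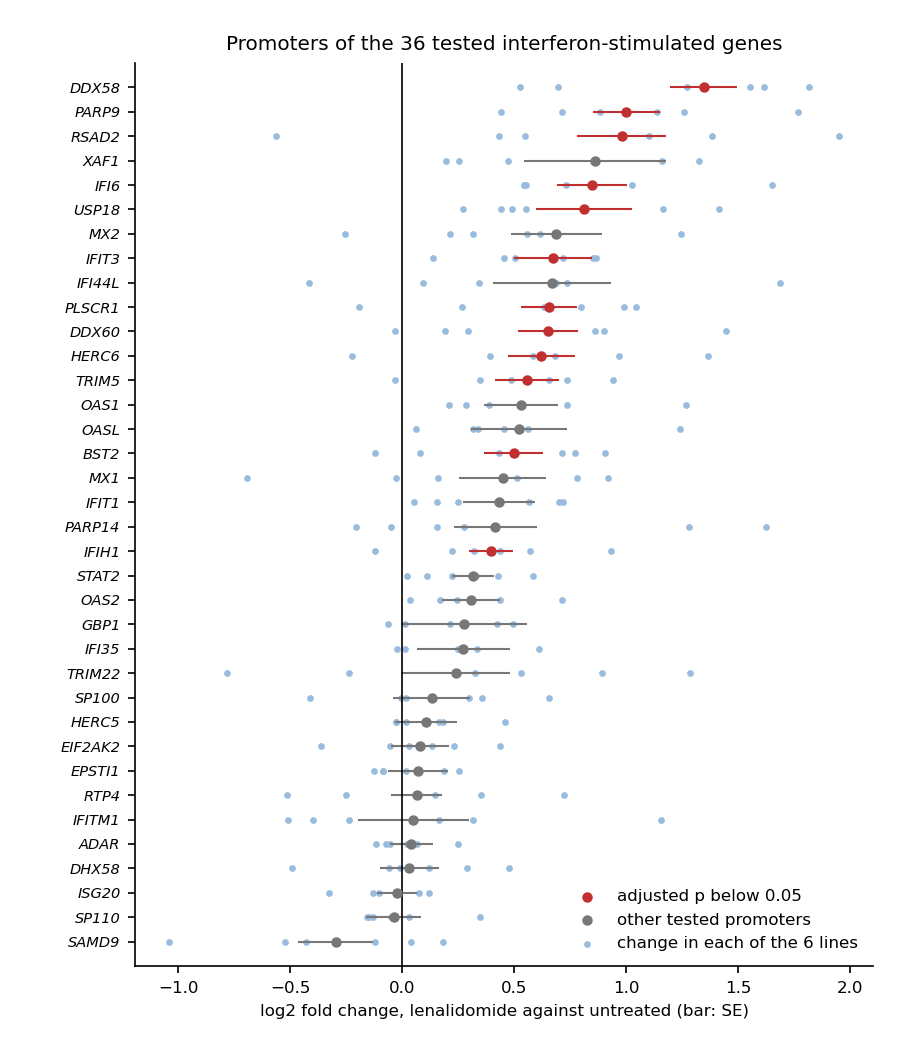
Fitted log2 fold change of promoter accessibility, lenalidomide against untreated, for the 36 tested members (large points, bars are SE), with the change of log2(CPM + 1) in each of the 6 lines as small points. The 12 called members, in red, lie between 0.40 (IFIH1) and 1.34 (DDX58), and 3 of the 36 lie below 0.

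DDX58 encodes RIG-I, the sensor of RNA with a free triphosphate end, and changed most. Its promoter was at 18.7 CPM in Karpas620, 11.8 in KMS27, 15.3 in L363, 20.9 in MM1S, 14.6 in OPM2 and 12.3 in RPMI8226 before treatment. In the same order it was at 27.4, 44.1, 48.9, 51.9, 44.8 and 20.5 CPM with lenalidomide. All 6 lines rose, and 5 of the treated values lay above the highest untreated value. The mean went from 15.6 ± 3.60 to 39.6 ± 12.6 CPM (SD, n = 6), a log2 fold change of 1.31 ± 0.16 (SE) in the fit of regions (edgeR, adjusted p = 1.88e-06). The other sensors and helicases gave smaller values. DDX60 went from 17.3, 11.8, 25.0, 50.5, 78.3 and 16.999 CPM to 21.5, 33.9, 47.5, 92.6, 76.4 and 19.5 in the same order, a log2 fold change of 0.62 ± 0.14 (edgeR, adjusted p = 0.00543). OPM2, the highest line untreated, was the exception to its rise. IFIH1 rose in 5 of 6 lines, from 65.2 ± 23.9 to 82.5 ± 20.9 CPM (log2 fold change 0.37 ± 0.10; edgeR, adjusted p = 0.0195). DHX58, which encodes the regulatory sensor LGP2, had a log2 fold change of 0.03 and did not pass the test (adjusted p = 0.961, edgeR on promoter sums).

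PARP9, an ADP-ribosylation factor that works with the ubiquitin ligase DTX3L, rose in all 6 lines. It was at 21.2 CPM in Karpas620, 5.06 in KMS27, 9.18 in L363, 18.2 in MM1S, 17.2 in OPM2 and 32.1 in RPMI8226, and with lenalidomide at 39.9, 12.3, 33.7, 30.5, 42.5 and 44.02 CPM in that order. The groups overlapped, but each line was higher than itself untreated. The log2 fold change was 1.00 ± 0.16 (edgeR, adjusted p = 7.44e-05), and because the region serves both divergent genes the value holds for the shared PARP9 and DTX3L start. Of the 7 tested promoters in the ISG15, ubiquitin and ADP-ribosylation group, 4 were raised. TRIM5, a restriction factor of retroviral capsids, went from 6.59, 31.7, 7.14, 27.1, 13.6 and 17.9 CPM to 10.2, 51.0, 16.1, 39.2, 25.3 and 19.5 at its main start region (log2 fold change 0.64 ± 0.16; edgeR, adjusted p = 0.0113). HERC6 rose in 5 of 6 lines (0.61 ± 0.16; adjusted p = 0.0184) and USP18, the protease that removes ISG15 and dampens receptor signaling, in 6 of 6 (0.78 ± 0.23; adjusted p = 0.0326, both edgeR). HERC5, PARP14 and TRIM22 had log2 fold changes of 0.11, 0.42 and 0.24 as promoter sums and did not pass.

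IFI6, a mitochondrial and endoplasmic reticulum protein that inhibits apoptosis, was at 15.96 CPM in Karpas620, 12.8 in KMS27, 11.7 in L363, 17.9 in MM1S, 7.83 in OPM2 and 18.9 in RPMI8226. With lenalidomide it was at 23.9, 19.2, 24.9, 26.5, 26.7 and 32.01 CPM. Each line was higher than itself untreated (log2 fold change 0.84 ± 0.17, edgeR, adjusted p = 0.00154). The lowest treated value (19.2 CPM in KMS27, 56 counts) lay only just above the highest untreated value (18.9 CPM in RPMI8226, 40 counts). How many other regions separate in this way was not counted. IFI35, IFI44L and XAF1 had log2 fold changes of 0.27, 0.67 and 0.86 without passing the test, and of the 7 tested promoters of this remaining group, IFI6 was the only member raised.

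PLSCR1 rose in 5 of 6 lines, and its open and closed lines stayed apart. The closed lines went from 2.43 to 3.13 CPM (Karpas620) and from 7.42 to 15.7 (KMS27), and the open lines from 61.7 to 128.2 (L363), 72.1 to 126 (MM1S), 50.1 to 78.2 (OPM2) and 64.2 to 56.0 (RPMI8226). The lenalidomide values of the 2 closed lines lay below every untreated value of the open ones (log2 fold change 0.63 ± 0.13, edgeR, adjusted p = 0.00184). In KMS27 the PLSCR1 promoter was not called untreated and was called with lenalidomide, while in Karpas620 it was called in neither library. RSAD2 went from 9.02, 2.02, 5.10, 23.7, 21.9 and 13.7 CPM to 12.5, 3.42, 22.6, 51.9, 58.8 and 8.95, in the order Karpas620, KMS27, L363, MM1S, OPM2 and RPMI8226. It was lower in RPMI8226 and higher in the other 5 lines (0.93 ± 0.22; edgeR, adjusted p = 0.00684). BST2, the tether that holds budding virus on the cell, rose in 5 of 6 lines (0.48 ± 0.14; edgeR, adjusted p = 0.0430). IFITM1, which hinders viral entry, had a log2 fold change of 0.05 as a promoter sum.

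**Figure D5:**
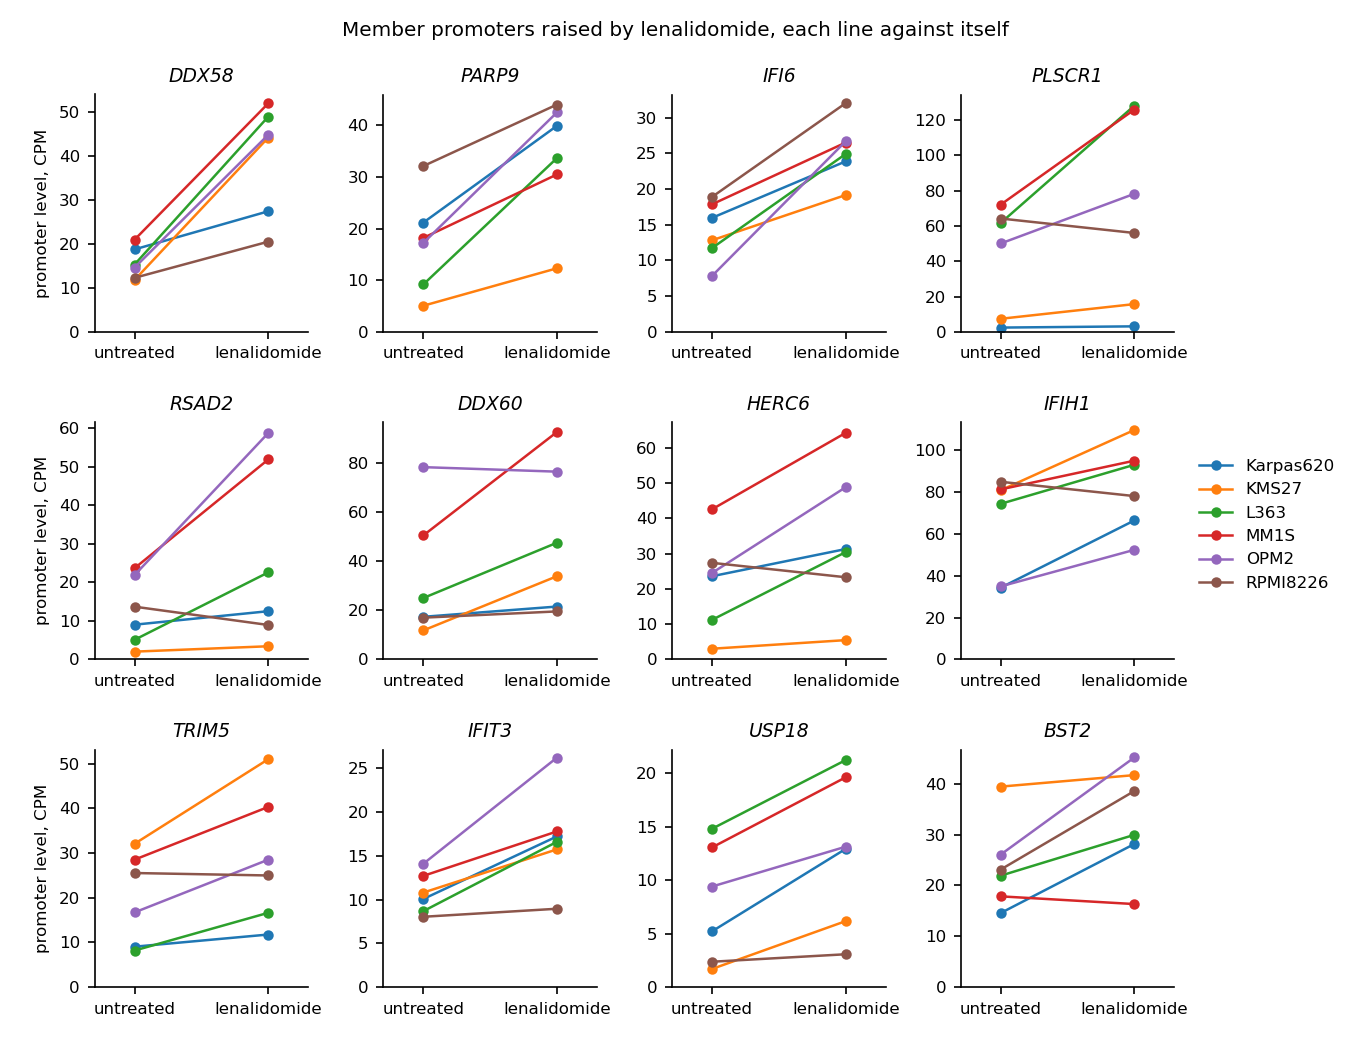
Promoter level in CPM, with regions summed per gene, of the 12 called members in each of the 6 lines untreated and with lenalidomide; a line joins the libraries of 1 cell line. All 6 lines go up for DDX58, PARP9, IFI6, IFIT3 and USP18, and RPMI8226 goes down for PLSCR1, RSAD2, HERC6, IFIH1 and TRIM5.

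MX1 and MX2 differed between the fits. Of the 2 start regions of each gene, 1 was raised on its own (MX2 0.84 ± 0.22 with 6 of 6 lines up, adjusted p = 0.0178; MX1 0.81 ± 0.24 with 5 of 6 up, adjusted p = 0.0374, both edgeR), whereas the sums over both regions did not pass (0.69 with adjusted p = 0.0544 and 0.45 with adjusted p = 0.276). IFIT3 was called only as a sum over its 2 start regions (0.67 ± 0.17, 6 of 6 lines up; edgeR, adjusted p = 0.0217), and the larger of these alone had an adjusted p of 0.111. STAT2 and OAS1 were higher in 6 of 6 lines, with log2 fold changes of 0.32 and 0.53, without passing (adjusted p = 0.0509 and 0.0748 in edgeR). The promoters of IFIT2, IFI44, IFITM2, IFITM3, OAS3, CMPK2, SAMD9L, GBP2 and LGALS3BP had too few counts to be tested. CMPK2, at 37.1 CPM untreated and 61.0 CPM with lenalidomide in MM1S, was below 6 CPM in the other 5 untreated lines.

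The 2 lowered regions were both off a start. A region 496 bp upstream of a start of ISG20 (chr15:89178715-89178887) went from 7.98, 4.38, 14.8, 9.96, 0.522 and 0 CPM to 1.96, 0.684, 6.46, 5.81, 0 and 0.235. It was lower in 5 of 6 lines, and OPM2 and RPMI8226 were near 0 throughout (log2 fold change −1.34 ± 0.32; edgeR, adjusted p = 0.00716). The region 16920 bp upstream of SAMD9L (chr7:92794603-92795311) was lower in 6 of 6 lines (from 15.8 ± 9.05 to 9.80 ± 6.04 CPM; −0.68 ± 0.20; adjusted p = 0.0351, edgeR). The ISG20 promoter sum had a log2 fold change of −0.02, at 75.2 and 73.6 CPM at its main start region.

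The number of member promoters that were higher with lenalidomide differed between lines, each with 1 library per condition. The RPMI8226 pair was the most uneven in depth, with 4248017 counts treated against 2117764 untreated. The part of depth in the differences between lines was not tested. Over the 36 tested promoters, 33 were higher with lenalidomide in L363, 32 in OPM2, 28 in KMS27, 27 in MM1S, 25 in Karpas620 and 22 in RPMI8226. The median change of log2(CPM + 1) ran from 0.16 in RPMI8226 to 0.55 in OPM2. The share of all 11901 tested promoters that were higher was 36.01% in MM1S and 57.2% in RPMI8226, the 2 ends, so RPMI8226 had the smallest change of the members beside the largest share of rises at large. Of the 12 called members, 7 were higher in RPMI8226 and 11 or 12 in each of the other lines, values which the calls themselves used.

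Raised regions were found both with and without ISRE letters. Among tested start regions of the members, 7 of 19 with ISRE letters in the window were raised and 6 of 20 without. Over all tested start regions, 31 of 473 with the letters were raised (6.55%) and 227 of 12620 without (1.80%). Of the 13 raised regions, 5 had none of the 3 motifs in the window (HERC6, MX1, MX2, RSAD2 and USP18), as had STAT2, which did not pass, and that says only that these letters are absent from these 300 bases. Over the whole promoter region, ISRE letters were in 31 of 53 member regions (58.5%) against 10.3% of 18012 in all. All raised regions but those of DDX58 and MX2 held them. So did tested regions that were not called, among them those of IFIT1, RTP4 and SAMD9.

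The rest of the interferon pathway was raised at few starts and at several regions off the start. Of 41 other genes of the pathway (interferons, receptors, kinases and STATs, sensors and adaptors, inhibitors and interferon regulatory factors), 30 had a promoter region and 28 could be tested as sums, of which 2 were raised (2.08% of all genes were) and 0 lowered. These were TMEM173, which encodes the DNA-signaling adaptor STING (log2 fold change 0.72 ± 0.14; edgeR, adjusted p = 0.00108), and PTPN6, a phosphatase that restrains cytokine receptors (0.60 ± 0.13; adjusted p = 0.00241). The PTPN6 sum was lower in OPM2 alone (26.6 to 16.7 CPM) and little changed in Karpas620 (23.6 to 24.6 CPM). Its tested start regions other than the raised one had log2 fold changes of −0.26 and 0.04 and did not pass. The median over the 28 was 0.08. None of the 4 receptor or 6 interferon regulatory factor promoter sums tested was raised, and IRF9 had a log2 fold change of 0.20 without passing the test. Of the 9 interferon genes listed, 1 had a promoter region, IFNL2, called in 1 untreated line and too low to test. Of 72 tested regions of these 41 genes 8 were raised (4.17% of all were) and 0 lowered (1.22% were). At a start 2 of 33 were raised (1.97% of all start regions were), those of PTPN6 (1.10 ± 0.16) and TMEM173 (0.76 ± 0.16), and off the start 6 of 39 (5.35% of all were), where members had 0 of 20. The 6 lay 1805 bp downstream of a start of PTPN6 (log2 fold change 1.28 ± 0.15, 6 of 6 lines up; edgeR, adjusted p = 1.38e-06), 18817 bp upstream of the receptor gene IFNGR2 (0.83 ± 0.15, 6 of 6; adjusted p = 0.000324) and 34629 bp upstream of IFNK (0.79 ± 0.16, 6 of 6; adjusted p = 0.00145). The others lay 64353 bp upstream of the receptor gene IFNGR1 (1.29 ± 0.31, 5 of 6 lines up; edgeR, adjusted p = 0.00745), 4924 bp upstream of IRF1 (0.31 ± 0.08, 6 of 6; adjusted p = 0.0209) and 2414 bp upstream of SOCS1, an inhibitor of the kinases (0.69 ± 0.19, 6 of 6; adjusted p = 0.0276). Each was assigned to the gene of the nearest start, and which gene it acts on was not tested.

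All of these calls needed the comparison of each line with itself. Without the cell line as a block, edgeR called no member region (3 at an unadjusted p below 0.05) and no region at all. DESeq2, with the block, called 6 of 59 member regions raised (722 of all 37732) and 3 of 36 promoter sums (57 of all 11901). With single lines left out, 7 of 54 tested member regions were raised without MM1S (875 of all 33158) and 7 of 60 without OPM2 (1179 of all 39570). Of the promoter sums, 5 of 39 were raised without L363 (108 of all 11992) and 6 of 39 without OPM2 (171 of all 12045). Of the 15 called regions and 12 called sums, 9 kept their call in at most 1 of every 2 alternatives tried, among them USP18 and BST2 as region and as sum and IFIH1, IFIT3 and TRIM5 as sums. Lenalidomide libraries of the pairs were deeper at the median (2655490 against 2500174.5 counts). With the deeper library of each pair thinned to the depth of the other, 13 of 55 tested member regions were raised (1405 of all 34082). Of the promoter sums, 13 of 34 were raised (274 of all 11678). The summed plasma cell markers were at 287 to 345 CPM untreated and 242 to 355 CPM with lenalidomide, the T cell markers at 1.37 to 5.55 and 0.342 to 6.26 CPM, and the myeloid marker at 0 to 22.2 and 1.38 to 17.6 CPM, and the part of these cell types in the result was not tested.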

How the data were processed

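The authors aligned reads to GRCh37 with Bowtie2 2.2.6 and called peaks per library with MACS2 2.1.0.20151222. The deposited counts are whole-number reads per region, merged over libraries. The authors also deposited a whole-number score per region and library, read here as that library's peaks in the region, which the files do not define. Whether reads or fragments were counted, and whether duplicates were removed, is not given in the sources used here.

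CPM were counts over the library's total in regions, and a pseudocount of 1 was used on the log2 scale. Promoter counts were summed per gene. Lenalidomide was tested with edgeR 4.0.16 in R 4.3.3 (TMM, filterByExpr by condition, cell line as block, quasi-likelihood test, Benjamini-Hochberg over all features). The SE is the fold change on the log2 scale over the root of F. The fits were tested on simulated data with 200 features changed 2-fold, of which 139 were found among 37732 regions, beside 3 false calls, and 189 among 11901 promoters, beside 10. Pairs come from the line names in the labels. Because each line was assayed once per condition, p-values rest on how far the change with lenalidomide varied between lines. edgeR estimates this spread for a feature together with all other features, so p-values and SE do not rest on its own 6 changes alone. At the RSAD2 promoter sum the 6 changes had a mean of 0.81 and an SD of 0.87, beside an SE of 0.20 from the fit. Differences in level between lines were taken up by the block.

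Named were all called members, the 8 called regions of lowest adjusted p with all values, the 6 highest and 6 lowest promoters per kb, the 8 of largest SD and the 6 highest regions off the start. Others complete a group and were picked with values known. The member, pathway and marker lists were chosen with earlier results of these data known, and some of their genes are not reported here. Alternatives were DESeq2 1.42.0, no TMM, no filter, at least 10 counts per library, no block, equal depth, an adjusted p below 0.1, each line left out, other thresholds, pseudocounts and scalings. Sequences are from the GRCh37 genome.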

Additional observations from a re-analysis of the deposited data

Results flagged for a closer look

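The change of log2(CPM + 1) with lenalidomide was screened in the 6 lines for each of the 27 called member regions and promoter sums, and 1 had a line far from the others. At the raised start region of MX2, OPM2 changed by 1.28, against 0.33 to 0.68 in the other 5 lines. Its gap to the nearest of them was 0.633 of the whole range, above Dixon's critical value of 0.625. Chance flags about 1 in 20 such sets.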

How the results depend on the processing

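Of the 13 raised and 2 lowered member regions, DESeq2 gave 6 and 0, no replicate block 0 and 0, no filter on low counts 18 and 1 and at least 10 counts in each library 10 and 0. Over all regions, DESeq2 raised 722 of 37732, no filter 3608 of 154981 and at least 10 counts in each library 472 of 13790. Leaving out each line gave 7 to 15 raised (7 without MM1S and 7 without OPM2) and 0 to 2 lowered (1 without Karpas620, 0 without L363, 0 without MM1S and 1 without OPM2). Over all regions it gave 875 raised (without MM1S) to 1919 (without RPMI8226). Of the 12 raised promoter sums, DESeq2 gave 3 and no replicate block 0, with 5 at an unadjusted p below 0.05, and leaving out lines gave 5 (L363) to 14 (RPMI8226), with 6 without OPM2. Over all genes, DESeq2 raised 57 of 11901, and leaving out lines gave 108 (L363) to 380 (RPMI8226). The block is the cell line that the labels name for each pair. No called member changed sign under the alternatives in which it could be tested. DDX58, PARP9 and IFI6, as regions and as sums, lost their call only without the block. As regions, SAMD9L upstream kept its call in 3 of 11 alternatives, MX1 and USP18 in 5 of 11, BST2 in 5 of 12, HERC6 in 6 of 11, MX2 in 7 of 11 and IFIH1 in 7 of 12; as sums, USP18 did in 4 of 11, BST2, IFIT3 and TRIM5 in 5 of 12, IFIH1 in 6 of 12 and HERC6 in 6 of 11. With at least 2 CPM in place of a call, 23 members were open in all 22 lines (51.1%, against 57.3% of all genes), and with at least 5 CPM 15 were (33.3%, against 49.1%). The median correlation between members was 0.116 to 0.146 when each line was left out, and no scaling or pseudocount tried moved a line's median by more than the SD between lines. TMM scaling made KMS21BM the lowest line and U266 the highest. The 9 promoters that could not be tested had few counts, and the parts of depth and of low accessibility in this were not tested.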
